A study of Mus musculus with 88 samples.

Results

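Cluster 12 is a group of 228 of the 4949 single cells that the authors kept from embryoid bodies (EBs), the aggregates in which mouse embryonic stem cells (ESCs) differentiate without added lineage-directing factors. Its members are the cells that the deposited annotation assigns to cluster 12 of 22 at clustering resolution 2.5, and no cell was added or removed here. Of these cells, 208 were wild type (WT, the E14 line), 15 were Mtf2 null, 5 were Jarid2 null, and 0 were Eed null. The cells were kept in serum and LIF as undifferentiated ESCs and were sorted at days 0, 4, 7, and 10 of EB formation. Mtf2, Jarid2, and Eed encode subunits of Polycomb repressive complex 2 (PRC2), which methylates histone H3 at lysine 27 and holds developmental genes silent. The WT cells were E14 cells of the 129/Ola background, and the 3 null lines were made by other laboratories in other ESC lines, so that genotype and line of origin cannot be told apart in the single cells. Each genotype and day was 1 library, a single multiwell plate, and so the spread between cultures was not measured and no test is given for the single cells. Levels are given as UMI CPM, the unique molecular identifiers (UMIs, each 1 captured mRNA molecule) of a gene scaled to a total of 1000000 UMIs in a group of cells, with exact Poisson intervals at 95%. Shares of cells have exact Clopper-Pearson intervals at 95%. Both kinds of interval cover counting error only. The clusters were made by the authors from these same cells, so that gene levels in cluster 12 set against other clusters are a description of the cluster and no evidence that it is a separate cell type.

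ESCs in serum and LIF express a network of naive pluripotency factors, among them Nanog, Klf4, Esrrb, Tfcp2l1, and Zfp42 (Rex1). On leaving the naive state, cells pass through a formative state, in which the core factors Pou5f1 (Oct4) and Sox2 stay on while Otx2, Pou3f1 (Oct6), and the de novo DNA methyltransferase Dnmt3b come up, before they take on a germ layer. Otx2 encodes a homeodomain transcription factor that directs Oct4 to new enhancers in formative cells and later patterns the anterior neural plate. Nanog encodes a homeodomain transcription factor of naive cells that is used again in the primitive streak and in primordial germ cells.

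Both markers that name the cluster were detected in it. Otx2 (ENSMUSG00000021848) is a gene of the minus strand of chromosome 14, positions 48657677 to 48673819 in build GRCm38. Its level in cluster 12 was 416 UMI CPM (385 to 448). This was the third of the 22 levels, below 464 in cluster 15 (420 to 512), with an interval that overlaps those of cluster 15 and of cluster 1, which had 416 (393 to 440). The next level down was 295 in cluster 11. Nanog (ENSMUSG00000012396) is a gene of the plus strand of chromosome 6, positions 122707489 to 122714633, with 216 UMI CPM in cluster 12 (194 to 240). Nanog was the eighth of the 22 levels, just under 217 in cluster 3, the cluster of undifferentiated WT cells, and below 391 in cluster 17. Otx2 was thus high in the cluster as its label says, whereas Nanog was at the level of undifferentiated WT cells and not above it. Across the 22 clusters, the genes with the profile most like that of Otx2 among 4266 compared were Zic5 (Spearman rho 0.801), Atad1 (0.776), Plekha1 (0.774), Dcaf17 (0.761), and Kcnk1 (0.752). The clusters share libraries and lines, so that these values describe the clusters and carry no test.

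**Figure D1:**
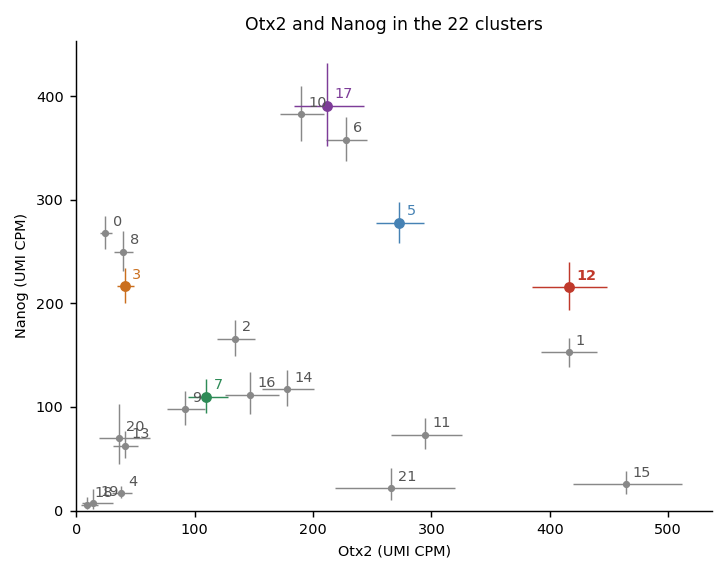
Otx2 (horizontal axis) and Nanog (vertical axis) in UMI CPM for each of the 22 clusters, numbered, with 95% Poisson intervals. Cluster 12 combines 416 UMI CPM of Otx2 with 216 of Nanog, whereas cluster 15 has more Otx2 (464) and little Nanog, and cluster 17 has more Nanog (391) and less Otx2 (212). Cluster 1 (416 of Otx2 and 153 of Nanog) and cluster 5 (273 and 278) also combine both genes.

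A UMI of Otx2 was found in 66.2% of cluster 12 cells (59.7 to 72.3), which had a median of 5857 UMIs per cell. The background was read in cluster 18, whose cells carried embryonic globin mRNA (Hba-x at 29945 UMI CPM) and should lack Otx2, and where 7.02% of cells had a UMI of Otx2. After thinning each cell to 2500 UMIs, which leaves out 34 cluster 12 cells, the share was 53.6% in cluster 12 and 1.89% in cluster 18. The thinned share was 60.6% in cluster 1, above that of cluster 12. It was 37.7% in cluster 5, 29.9% in cluster 17, 22.1% in cluster 7, and 9.12% in cluster 3, all above the background in cluster 18. Nanog was found in 60.5% of cluster 12 cells, and in 39.7% after thinning, against 0.943% in cluster 18. Cells with a UMI of both genes made up 43.4% of cluster 12 and 18.0% after thinning, where the product of the single thinned shares is 21.3%. Both RNAs were thus found in the same cells of cluster 12, in a share near the product. Cluster 1 had similar shares of cells with both, at 41.6% and 17.9% after thinning, and cluster 5 had 40.6% and 13.4%.

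Cluster 12 was mainly a population of WT EBs at days 4 and 7. It held 8 of 340 WT cells at day 0 (2.35%, 1.02 to 4.58), 99 of 331 at day 4 (29.9%, 25 to 35.2), 77 of 316 at day 7 (24.4%, 19.7 to 29.5), and 24 of 214 at day 10 (11.2%, 7.32 to 16.2). WT cells were 91.2% of the cluster (86.8 to 94.6). The Mtf2 null library of day 4 held 12 cluster 12 cells of 331 (3.63%, 1.89 to 6.25), and the day 7 library 3 of 344 (0.872%). The Jarid2 null libraries held 3 of 321 at day 4 (0.935%) and 2 of 302 at day 7 (0.662%). The Mtf2 null and Jarid2 null libraries of days 0 and 10 held 0. None of 1181 Eed null cells was in the cluster, and a count of 0 of the 202 to 340 cells in an Eed null library allows a share of up to 0.882 to 1.49% by the limit of 3 cells, or 1.08 to 1.81% by the upper Clopper-Pearson bound. At day 4 the WT interval lies above those of all 3 null libraries, but a WT plate and a null plate differ in line, plate, and genotype at the same time.

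**Figure D2:**
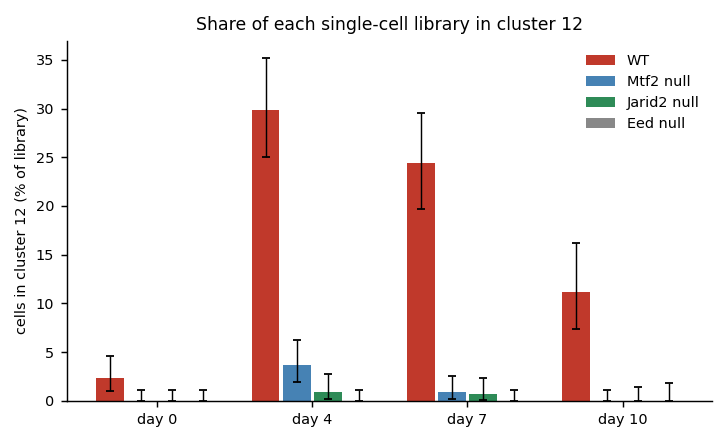
Cells in cluster 12 as a percentage of the kept cells of each of the 16 libraries, by day and genotype, with 95% Clopper-Pearson intervals. The WT bars reach 29.9% at day 4 and 24.4% at day 7, no null library passes 3.63%, and the Eed null bars are at 0.

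The rest of the WT day 4 library was almost all cluster 7, which held 224 of its 331 cells (67.7%). Cluster 7 was the other WT population of the early EBs, with 278 WT cells among 292 (95.2%). Cluster 5 held 315 cells, of which 251 were Jarid2 null and 63 Mtf2 null, and cluster 17 held 125 cells, of which 100 were Jarid2 null and 25 Mtf2 null. Cluster 12 was nearest to cluster 2 (Spearman rho 0.920 over 7489 genes) and cluster 5 (0.919) by the expression of all genes, followed by clusters 17 and 7 (both 0.905).

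The targeted genes were lower in their own null plates than in the WT plates of the same day. Mtf2 had 53.7 to 61.1 UMI CPM in Mtf2 null and 365 to 793 in WT libraries, Jarid2 115 to 185 in Jarid2 null and 215 to 594 in WT, and Eed 1.33 to 11.5 in Eed null and 115 to 478 in WT. Libraries differed in depth, with medians of 4997 to 10603 UMIs per cell. Within the WT libraries, cluster 12 cells had a median of 7050 UMIs at day 4 against 4626 in the other cells, 4928 against 6194 at day 7, and 6680 against 5610 at day 10. Every plate uses the same set of well barcodes, so that a shared barcode shows no shared cell. Doublets were not called here, and 16 cluster 12 cells (of 106 cells in all) had over 3 times the median UMIs of their library. The cluster also depends on the resolution. At resolution 3 its cells fell into 11 clusters, the largest piece holding 34.2% of them, and at resolution 5 into 16. At resolution 8 they were held together in a pair of clusters, the first with 133 cells (58.3%) and the second with 90 (39.5%). Of the WT cells, the first had 43 at day 4 and 60 at day 7, and the second 55 and 16.

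Compared with all other cells, cluster 12 was set apart by few genes. Of 4659 genes with at least 50 UMI CPM on either side, 47 were at least 2-fold higher (1.01% of the genes compared) and 102 at least 2-fold lower (2.19%). Sycp3, a component of the meiotic synaptonemal complex, was 4.56-fold higher (189 against 41.4 UMI CPM). Ap3b2, a neuronal adaptor subunit, was 3.77-fold higher (51.9 against 13.8), Abcc4, a membrane exporter, 3.58-fold (251 against 70.0), Otx2 2.71-fold (416 against 154), and Clybl, a mitochondrial enzyme, 2.43-fold (189 against 77.9). Lefty1, a secreted inhibitor of Nodal and itself a Nodal target, was 3.4-fold higher (216 against 63.5). Nanog was not among them, at 216 against 192. The imprinted noncoding RNAs Rian (153 against 32.4) and Meg3 (535 against 148) were also higher, and these are among the genes that separate WT from null cells, as described further on. Rian, Meg3, and Lefty1 had larger ratios than some ranked genes but were not higher than in the other WT cells within each of the WT libraries of days 4, 7, and 10, which the ranking required.

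The genes lower in cluster 12 than in all other cells included germ layer genes and naive or LIF-dependent genes. Hand1 (13.9 against 82.0 UMI CPM) and Twist1 (15.1 against 70.7), transcription factors of mesoderm, and Dlk1 (32 against 352) and H19 (1.21 against 94.3), imprinted genes of growing mesodermal and endodermal tissue, were lower. H19 rested on 2 UMIs in cluster 12 (log2 ratio -6.29, -9.33 to -4.43). Of the 14 mesoderm genes of the list, 4 could be compared, and all 4 were lower (median log2 ratio -2.40, against -0.02 over all genes). Hand1 and Twist1 were below the UMI CPM limit in cluster 12 and so were compared only through the other cells. Such genes could not have come out higher, so that this count cannot show a direction for the list. Of 15 naive genes compared, 3 were lower and 0 higher: Klf4 with 18.7 against 118, Tbx3 with 29.6 against 95.9, and Nr0b1 with 79.0 against 208. Klf4 and Tbx3 were likewise compared only through the other cells. Socs3, a feedback inhibitor that LIF induces through STAT3, had 21.1 against 83.7. The core genes did not move past 2-fold in either direction (0 of 11), with Sox2 at 836 against 695 and Pou5f1 at 96.5 against 66.1. Krt8, a keratin of simple epithelium, had 20.5 against 83.0. The set of all other cells mixes every line and every late lineage, and with each of the other clusters weighing the same, 163 genes in place of 102 were lower.

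The undifferentiated WT cells give a reference of the same line. Cluster 3 held 311 WT cells, and 90.3% of WT cells at day 0. Between WT cells of clusters 12 and 3, 398 of 4779 genes were at least 2-fold higher in cluster 12 (8.33%) and 255 at least 2-fold lower (5.34%). Otx2 had 403 UMI CPM in WT cells of cluster 12 and 40.9 in those of cluster 3 (9.86-fold), Sox11, a SoxC factor, 257 and 43.1 (5.96-fold), and Pou3f1 123 and 30.3 (4.07-fold). Podxl, a sialomucin that lines the lumen of the epiblast, had 64 and 8.03 (7.97-fold), and Zic2, a zinc finger factor, 56.1 and 7.30 (7.68-fold). Of 16 formative genes compared, 7 were higher and 2 lower. Otx2, Sox11, Pou3f1, Podxl, and Zic2 were below the UMI CPM limit in cluster 3 and so were compared only through cluster 12. They could not have come out lower, so that this count cannot show a direction for the list.

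The naive network was lower in WT cluster 12 cells than in WT cluster 3 cells in 12 of 16 genes compared, and in none was it past 2-fold higher. Klf4 had 19.8 UMI CPM against 204 (10.3-fold lower), Nr0b1 73.9 against 420, Tbx3 29.7 against 168, Klf5 345 against 1292, Esrrb 73.9 against 242, and Zfp42 308 against 812. Klf4 and Tbx3 were below the UMI CPM limit in cluster 12, and so could only come out lower. Nanog differed least of the naive genes named here, with 223 in WT cluster 12 cells and 222 in WT cluster 3 cells (log2 ratio 0.01, -0.19 to 0.20). Outside the naive list, Bmp4, the ligand that maintains Id genes, had 99.7 against 689, and Tet1, a 5-methylcytosine dioxygenase, 558 against 1527. WT cells of cluster 12 were thus cells with low Klf4 and Esrrb, high Otx2, and Nanog at its undifferentiated level. Among the 50 genes with the highest ratio, 11 are pseudogenes by annotation, whose reads can be shared with their parent genes.

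**Figure D3:**
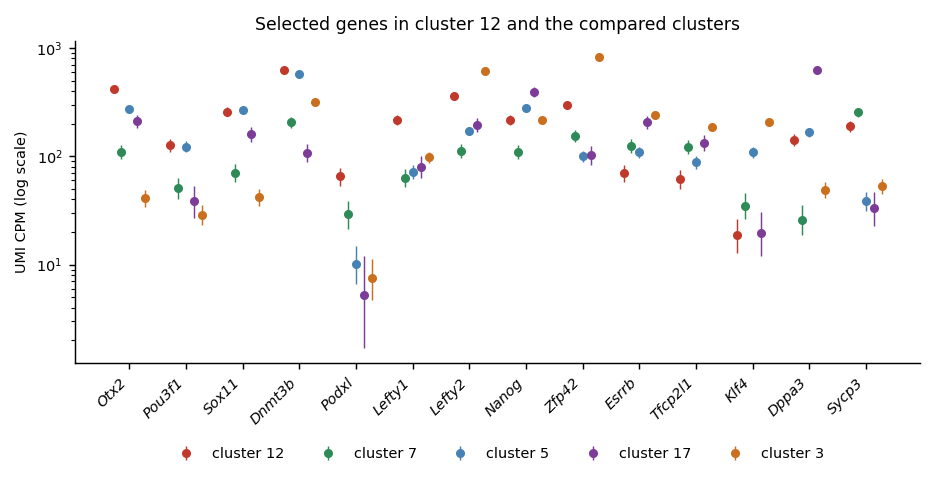
UMI CPM (log axis) of 14 genes in clusters 12, 7, 5, 17, and 3, with 95% Poisson intervals over the cells of each cluster. Cluster 12 has the highest point for Otx2, Podxl, and Lefty1 among these clusters, and Klf4 is as low in it (18.7 UMI CPM) as in cluster 17.

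Cluster 7 shows how cluster 12 differed from the other WT cells of early EBs. Of 4606 genes, 334 were at least 2-fold higher in cluster 12 (7.25%) and 151 at least 2-fold lower (3.28%). Of the formative genes, 10 of 14 compared were higher and 0 lower (median log2 ratio 1.28, against 0.15 over all genes), and the summed level of the whole list was 2900 UMI CPM in cluster 12 and 1168 in cluster 7. Otx2 had 416 against 110 UMI CPM (3.77-fold), Sox11 258 against 70.4 (3.67-fold), Dnmt3b 622 against 206 (3.02-fold), and Pou3f1 126 against 50.7 (2.49-fold). Nanog had 216 against 110, a log2 ratio of 0.98 (0.71 to 1.25).

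Genes of Nodal, FGF, and BMP signalling were counted in the same comparison, where 7.25% of all genes were higher and 3.28% lower. Of 8 Nodal pathway genes compared, 5 were higher in cluster 12 than in cluster 7 and 0 lower, among them Lefty1 (216 against 63.4 UMI CPM) and Lefty2 (359 against 112). Of 10 genes of FGF and ERK signalling, 7 were higher and 0 lower, and Dusp6, a phosphatase that ERK activity induces, had 110 against 22.2 (4.98-fold). Of the 11 BMP genes and targets, 4 could be compared, of which Id3 (118 against 27.9) and Id1 (177 against 63.4) were higher and 0 lower. Dusp6 and Id3 were below the UMI CPM limit in cluster 7 and so were compared only through cluster 12. Such genes could not have come out lower, so that the FGF and BMP counts cannot show a direction for these lists. Of the ranked genes, Lpar4, a lysophosphatidic acid receptor, was 7.46-fold higher, Ina, an intermediate filament protein of neurons, 5.91-fold, Dppa3 (Stella), a maternal and germ cell factor, 5.46-fold (142 against 26), and Mycn, a Myc family factor, 4.71-fold (358 against 76.1). L1td1, an RNA-binding protein of pluripotent cells, had 239 against 74.8, and Tet1 554 against 260.

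Among the named genes higher in cluster 7 were growth arrest, lysosomal, and glycolytic genes. Aqp3, a water and glycerol channel, had 4.22 UMI CPM in cluster 12 against 57.7, Gadd45g 13.3 against 121, and Gadd45b 25.9 against 181, the last pair being growth arrest and DNA damage genes. The lysosomal genes Cd68 (39.8 against 207) and Ifi30 (262 against 1329) were 5.19-fold and 5.07-fold lower in cluster 12. Of 19 genes of glycolysis and hypoxia, 5 were lower in cluster 12 and 0 higher, where 3.28% of all genes were lower and 7.25% higher. Their summed level was 13036 UMI CPM against 19557. Vegfa, a target of hypoxia factors, had 63.3 against 170, Aldoa 1894 against 4088, and Ldhb 402 against 955. Sycp3, which had the largest ranked ratio against all other cells, had similar levels in both, with 252 in WT cluster 12 cells and 259 in WT cluster 7 cells at day 4.

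The comparison could be made within a plate. Within the WT day 4 library, cluster 12 against cluster 7 had 481 of 4497 genes at least 2-fold higher (10.7%) and 216 at least 2-fold lower (4.80%). Otx2 had 480 against 95 UMI CPM (5.05-fold) and Dnmt3b 781 against 230 (3.39-fold). Tfcp2l1, a naive factor, went the other way, with 35 against 99.1. Among the 12 naive genes compared, 1 was higher and 2 lower. Without the WT day 4 library, 237 genes in place of 151 were at least 2-fold lower in cluster 12 than in cluster 7.

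The other cells of the same library serve as a comparison at each day. At day 4, 417 of 4479 genes were at least 2-fold higher in cluster 12 (9.31%) and 193 lower (4.31%). At day 7, 378 of 5120 genes were higher (7.38%) and 381 lower (7.44%), and at day 10, 708 of 5235 genes were higher (13.5%) and 714 lower (13.6%). Otx2 had 119 UMI CPM in cluster 12 and 42.2 in the other WT cells at day 0, 480 (435 to 529) and 100 at day 4, 379 (321 to 445) and 211 at day 7, and 231 (163 to 318) and 58.2 at day 10. The level in cluster 12 was above that of the other WT cells of its library at all 4 days, and highest at day 4. Nanog had 119 against 215 at day 0, from 8 cells, 215 against 117 at day 4, 229 against 134 at day 7, and 318 (237 to 419) against 20.2 at day 10. Thus Nanog in cluster 12 did not follow the other WT cells, where it was lowest at day 10.

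**Figure D4:**
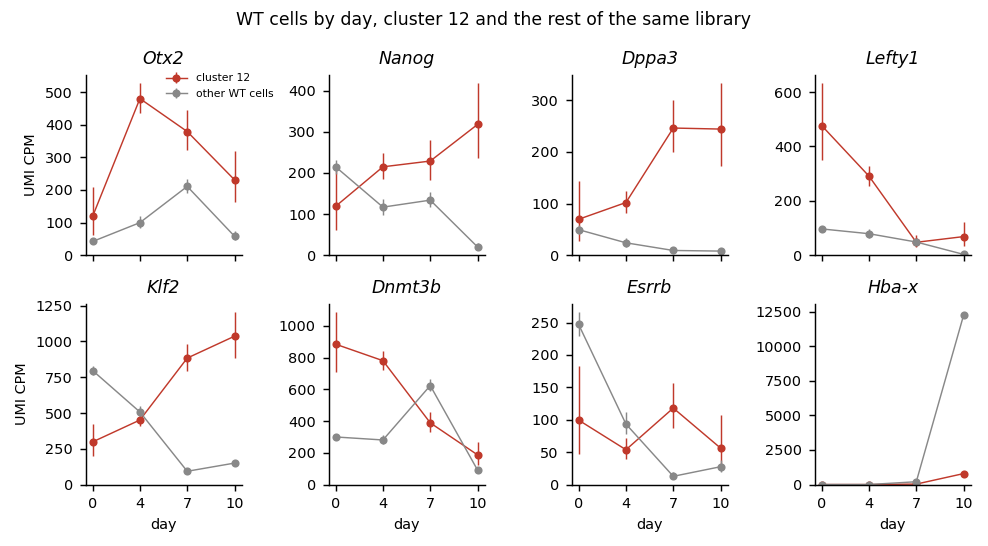
UMI CPM of 8 genes in cluster 12 cells and in the other cells of the same WT library at days 0, 4, 7, and 10, with 95% Poisson intervals. Otx2 in cluster 12 is highest at day 4 (480) while Nanog and Dppa3 are highest at days 7 and 10, and Hba-x appears in cluster 12 at day 10 (793) where the other WT cells carry far more.

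The cells of the cluster differed by day. Each day is 1 library, and so day and library cannot be told apart. From day 4 to day 7, 290 of 4838 genes were at least 2-fold higher in WT cluster 12 cells (5.99%) and 104 at least 2-fold lower (2.15%). Of 15 naive genes compared, 7 were higher at day 7 and 0 lower. Tfcp2l1 had 103 UMI CPM at day 7 against 35 at day 4, Tcl1, a coactivator of AKT, 92.9 against 30.4, Esrrb 118 against 53.7, and Tdh, the threonine dehydrogenase of ESCs, 359 against 152. Tfcp2l1 and Tcl1 were below the UMI CPM limit at day 4 and so were compared only through day 7. They could not have come out lower, so that the naive count cannot show a direction for the list. Dppa3 had 246 against 102. Eomes, a T-box factor of the primitive streak, was among the ranked genes, with 77.8 against 9.34 (8.33-fold).

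Lefty1 and Dnmt3b were lower at day 7. Lefty1 had 291 UMI CPM at day 4 and 47.7 at day 7 (6.10-fold lower), where the other WT cells had 79.3 and 48.7. Dnmt3b had 781 at day 4, 389 at day 7, and 187 at day 10. Klf2, a naive factor, ran the opposite way, with 451, 884, and 1037, as did Cdkn1a, a cell cycle inhibitor, with 110, 419, and 806.

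At day 10 the 24 WT cluster 12 cells held 610 of 4911 genes at least 2-fold above the day 4 level (12.4%) and 300 at least 2-fold below (6.11%). Of 14 formative genes compared, 1 was higher and 8 lower, and Otx2 had 231 UMI CPM against 480. Of 14 naive genes, 5 were higher and 1 lower. The genes that were highest against day 4 belong to blood and mesoderm. The embryonic globin Hba-x had 793 UMI CPM at day 10 and 0 UMIs at day 4 (at least 226-fold higher, against the limit of 3 UMIs), Col3a1, a fibrillar collagen, 106 and 0 (at least 30.3-fold), and Hand1 99.9 and 0 (at least 28.5-fold). In the other WT cells of day 10, Hba-x was 12257 UMI CPM, and the part of free RNA or doublets in the globin and mesoderm UMIs of the cluster was not tested. At this depth 1 UMI in the day 10 cells was 6.24 UMI CPM, and after thinning the counts at day 10 against day 4 were 1078 higher and 572 lower.

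None of the 11 core pluripotency genes was past 2-fold between clusters 12 and 5, whereas some naive and formative genes were. Of 4597 genes, 187 were at least 2-fold higher in cluster 12 (4.07%) and 93 at least 2-fold lower (2.02%). Otx2 had 416 against 273 UMI CPM (log2 ratio 0.61, 0.45 to 0.76) and Nanog 216 against 278 (log2 ratio -0.36, -0.55 to -0.18). Of 15 formative genes compared, 2 were higher and 1 lower, with a median log2 ratio of 0.04 against 0.00 over all genes. The higher ones were Podxl (65.2 against 10.2) and Fgf15, a secreted FGF of the early embryo. Of 7 Nodal pathway genes, 3 were higher and 0 lower, among them Lefty1 (216 against 72.2) and Lefty2 (359 against 171). Bmp4 had 94.1 against 24.8. Of 15 naive genes, 1 was higher, Zfp42 with 297 against 100, and 3 were lower, among them Klf4 with 18.7 against 109 and Nr0b1 with 79.0 against 335. Lef1, a nuclear effector of Wnt signalling, had 48.3 against 177. Podxl and Bmp4 were below the UMI CPM limit in cluster 5, and Klf4 and Lef1 in cluster 12. Each of these was compared only through the other cluster, and its direction was thereby fixed.

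By day, Otx2 in cluster 5 was 262 UMI CPM at day 4, 344 at day 7, and 225 at day 10, beside 480, 379, and 231 in WT cluster 12 cells, so that the gap stood at day 4. Nanog in cluster 5 was 931 at day 10, above the 318 in WT cluster 12 cells.

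Among the largest ratios between cluster 12 and cluster 5 were those of Rian, Meg3, and Hprt, which also separate WT from null cells in other clusters. WT and null libraries differ in line, plate, and genotype at the same time, and these cannot be told apart. Rian was at 153 UMI CPM in cluster 12 and at 1.5, from 4 UMIs, in cluster 5. Meg3, in the same imprinted region of chromosome 12 (109541001 to 109571726), was at 535 and 14.3. Hprt, the purine salvage enzyme that E14 cells lack, had 17.5 in cluster 12 and 597 in cluster 5 (34.1-fold lower), and 585 in cluster 17. Olig2, a neural factor, had 0 UMIs in cluster 12 and 82.7 UMI CPM in cluster 5 (at least 45.7-fold lower, against the limit of 3 UMIs), and Eif2s3y, a Y-linked gene, 170 against 21.1. Of the genes past 2-fold against cluster 5, 56 of the 187 higher genes (29.9%) and 42 of the 93 lower genes (45.2%) were past 2-fold in the same direction between the WT and Jarid2 null libraries at day 0, over cells outside clusters 12, 5, and 17, where the background was 4.06% of 4557 genes higher and 2.24% lower. These made up 30.3% and 41.2% of the genes past 2-fold at day 0. Against cluster 7, whose cells were mostly WT, the share was 12 of 334 higher (3.59%) and 1 of 151 lower (0.662%).

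The 20 Mtf2 null and Jarid2 null cells of cluster 12 at days 4 and 7 were unlike other cells of these genotypes in the same genes. A UMI of Meg3 or Rian was found in 14 of the 20 (70.0%), against 124 of 1278 other cells of these libraries (9.70%) and 149 of 176 WT cluster 12 cells (84.7%). A UMI of Hprt was found in 13 of the 20 (65.0%), against 77.0% of the other null cells and 1 of 176 WT cluster 12 cells (0.568%). As a group, the 20 cells therefore held Meg3 or Rian RNA, frequent in WT cells, and Hprt RNA, frequent in the null libraries. Cells with both were not counted. Median depths were 6200 UMIs in these 20 cells and 6428 in the other null cells. Whether they are doublets or carry RNA from other wells was not tested. With WT cells of the cluster alone, every count given against clusters 5, 7, and 17 and against all other cells stayed within 1.5 times its value.

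Cluster 17 differed from cluster 12 in formative, naive, and germ cell genes. Of 4664 genes, 217 were at least 2-fold higher in cluster 12 (4.65%) and 173 at least 2-fold lower (3.71%). Of 15 formative genes compared, 7 were higher in cluster 12 and 1 lower (median log2 ratio 0.97, against 0.00 over all genes). Both de novo DNA methyltransferases were higher, Dnmt3b with 622 against 108 UMI CPM (5.76-fold) and Dnmt3a with 185 against 54.0 (3.43-fold). Pou3f1 had 126 against 38.5, Podxl 65.2 against 5.20, and Fgf15 64 against 7.27. Pou3f1, Podxl, and Fgf15 were below the UMI CPM limit in cluster 17 and so were compared only through cluster 12. They could not have come out lower, so that the formative count and median cannot show a direction for the list. Tdgf1 (Cripto), the Nodal coreceptor, had 839 against 280, and Cdh1 (E-cadherin) 594 against 263. Otx2 had 416 against 212 (log2 ratio 0.97, 0.74 to 1.20), just under 2-fold.

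More naive genes were counted lower than higher, and the germ cell genes ran in both directions. Of 15 naive genes compared, 7 were lower in cluster 12 than in cluster 17 and 1 higher, with Esrrb at 69.4 against 206 UMI CPM, Tfcp2l1 at 61.5 against 133, and Nr5a2 at 36.2 against 104. Nr5a2 was below the UMI CPM limit in cluster 12 and so was compared only through cluster 17. Of the 14 germ cell genes, 4 could be compared, of which 3 were lower and 1, Sycp3, was higher. A UMI of Sycp3 was found in 45.6% of cluster 12 cells (30.4% after thinning) and 10.4% of cluster 17 cells (2.56%). Dppa3 was 4.41-fold lower, at 142 in cluster 12, and a UMI of it was found in 31.1% of cluster 12 cells (25.3% after thinning) and 92.0% of cluster 17 cells (72.6%). Prdm1 (Blimp1), which represses somatic genes in germ cell precursors, had 33.2 against 115, and so was compared only through cluster 17. Tfap2c, the partner of Prdm1, had 120 against 274. Of the genes past 2-fold against cluster 17, 53 of the 217 higher (24.4%) and 36 of the 173 lower (20.8%) were past 2-fold in the same direction between the WT and Jarid2 null libraries at day 0. The background there was 4.06% of 4557 genes higher and 2.24% lower. At day 7, the Otx2 level was 387 UMI CPM in cluster 17 and 379 in WT cluster 12 cells, so that the lower Otx2 level of cluster 17 did not hold on that day.

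Other lists were read by their summed level and counts. The primitive streak list had no gene at 50 UMI CPM, and its summed level was 74.2 UMI CPM in cluster 12 against 184 in all other cells. Two-cell-like genes had 0 UMIs. The neural ectoderm list had 115 UMI CPM in cluster 12 against 222 in all other cells. No gene of G2/M phase (0 of 26) and 1 of 20 genes of S phase, which was lower, was past 2-fold against all other cells. Of all genes in that comparison, 1.01% were higher and 2.19% lower. Against cluster 7, 3 of 18 S phase genes were higher, where 7.25% of all genes were higher. PRC2 subunits summed to 3340 UMI CPM in cluster 12 and 3154 in all other cells.

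Whether the genes that set WT cluster 12 apart from undifferentiated WT cells also changed in whole cultures was read in bulk RNA, which the single cells do not enter. The 50 genes with the highest and the 50 with the lowest ratio of WT cluster 12 to WT cluster 3 cells were followed. Day 0 cells made up 98.2% of cluster 3, so that these lists can hold genes shared with other WT EB cells. After thinning, Klf4 was found in 3.61% of cluster 12, 6.32% of cluster 7, and 36.2% of cluster 3 cells. In bulk RNA, fewer cells of a type and less RNA per cell cannot be told apart. WT EBs of the lines J1, JM8, and Pcl1-3 WT (12 samples, 1 per line and day) were compared at days 2, 4, and 7 with day 0, by limma with the line as a block and a call where the adjusted p was under 0.05 and the log2 fold change was over 1 in size. The labels give all of these samples as EBs, but the deposited columns of day 0 are marked as monolayer and those of later days as EB, so that day and form of culture cannot be told apart.

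At day 4, 19 of the 50 higher genes were called higher in WT EBs and 0 lower, where 4.97% of the 13826 genes tested were called higher. Only 34 of the 50 passed the filter on low values, and the median log2 fold change of these was 1.71. At an unadjusted p under 0.05, 26 were higher and 0 lower. Of the 50 lower genes, 49 passed the filter, and 28 were called lower and 0 higher, where 5.12% of all genes were called lower, with a median log2 fold change of -1.40. At an unadjusted p under 0.05, 38 were lower and 0 higher, and edgeR on the recovered reads called 17 of the higher genes higher and 28 of the lower genes lower, with 0 in the opposite directions. At day 7, 19 higher genes were called higher (background 8.88%) and 31 lower genes called lower (7.10%). At day 2 the lists did not move in these directions. Of the higher genes, 2 were called higher (2.09%) and 1 lower, with 4 higher and 7 lower at an unadjusted p under 0.05 and a median log2 fold change of -0.14. Of the lower genes, 0 were called lower (3.21%; edgeR on the recovered reads called 0) and 1 higher, with 3 lower and 10 higher at an unadjusted p under 0.05 by limma and a median of 0.10. Without the line JM8, which leaves fewer samples, 2 genes of all those tested were called at day 4 and 10 at day 7, and of the lists 1 gene of each at day 4 and 2 higher and 1 lower at day 7.

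Among the genes of the lists, Car4, a carbonic anhydrase, had 46.5, 47.1, and 21.3 size-factor-scaled reads in the J1, JM8, and Pcl1-3 WT lines at day 0 and 728, 974, and 402 at day 4. All 3 day 4 values lay above all 3 day 0 values (log2 fold change 4.15 ± 0.33 SE, limma adjusted p 0.000348). Socs3 had 912, 862, and 839 at day 0 and 125, 78, and 87.8 at day 4, with no overlap (-3.18 ± 0.19, limma adjusted p 0.000168). Klf4 had 605.1, 903, and 881 at day 0 and 45.9, 88.2, and 93.6 at day 4 (-3.42 ± 0.33, limma adjusted p 0.000896). Without JM8, the log2 fold changes at day 4 were 4.06 for Car4, -3.05 for Socs3, and -3.46 for Klf4, of which that of Klf4 no longer passed the test.

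Otx2 itself did not pass the test in WT EBs, since the lines differed. It had 219, 387, 219, and 47.7 size-factor-scaled reads at days 0, 2, 4, and 7 in the J1 line. It had 72.8, 191, 606.6, and 203 in the JM8 line, and 6.28, 9.50, 504, and 282 in the Pcl1-3 WT line. In JM8 and Pcl1-3 WT the highest value was at day 4, as in cluster 12, and in J1 it was at day 2 (day 4 against day 0, log2 fold change 3.05 ± 1.30 SE, limma adjusted p 0.136). Nanog had 2482, 1919, and 2789 at day 0 and 667, 1658, and 1977 at day 4 in J1, JM8, and Pcl1-3 WT (-0.87 ± 0.73, limma adjusted p 0.435).

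**Figure D5:**
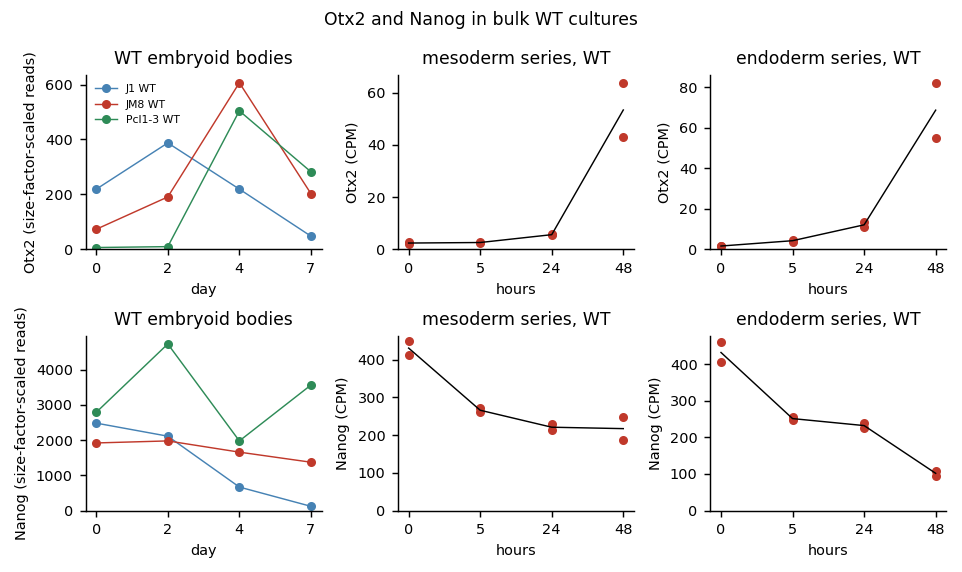
Otx2 (top) and Nanog (bottom) in bulk WT cultures: size-factor-scaled reads in the EBs of 3 WT lines at days 0, 2, 4, and 7, and CPM in the mesoderm and endoderm series undifferentiated (0) and at 5, 24, and 48 h, where points are the 2 libraries and the line their mean. Otx2 lies at 42.9 to 82.2 CPM at 48 h in both directed series and at 1.48 to 2.66 CPM undifferentiated, whereas the EB lines differ at day 0.

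WT cells directed toward mesoderm or toward endoderm gave a second independent reading, with 2 libraries per time point. The duplicates are technical by the study's description, and so the p-values measure the spread between libraries and not between cultures. By edgeR, a call needed a log2 fold change over 1 in size with its adjusted p under 0.001. Otx2 had 2.66 and 2.09 CPM in undifferentiated WT libraries of the mesoderm series and 63.9 and 42.9 at 48 h (log2 fold change 4.51 ± 0.26 SE, edgeR adjusted p 1.1e-10). In the endoderm series it had 1.69 and 1.48 CPM undifferentiated and 82.2 and 55.1 at 48 h (5.41 ± 0.25, edgeR adjusted p 3.9e-12). Nanog fell in the endoderm series, from 405 and 460 CPM to 108 and 95.5 (-2.10 ± 0.12, edgeR adjusted p 5.2e-11). In the mesoderm series it had 412 and 450 CPM and then 248 and 187, a difference past the p limit and short of the limit of size (-0.97 ± 0.12, edgeR adjusted p 2.5e-06).

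At 48 h toward mesoderm, 19 of the 50 higher genes of cluster 12 rose and 0 fell (5 were lower at an unadjusted p under 0.05 by edgeR, and DESeq2 called 18 and 0), where 5.57% of 18361 genes were called higher, and 29 of the 50 lower genes fell and 1 rose, where 3.08% were called lower. At 48 h toward endoderm, 18 rose and 0 fell (1 was lower at an unadjusted p under 0.05 by edgeR, and DESeq2 called 18 and 0; background 5.16% of 19261 genes), and 28 of the lower genes fell and 1 rose (3.00%). Of the 50 higher genes, 36 and 37 passed the filter on low counts in the mesoderm and endoderm series, with median log2 fold changes of 1.20 and 1.07. At 24 h, 8 of the higher genes rose toward mesoderm (4.65%) and 11 toward endoderm (3.22%), and 2 fell in each series. Of the lower genes, 11 (2.31%) fell and 1 rose toward mesoderm, and 13 (2.09%) fell and 0 rose toward endoderm (by edgeR 7 were higher at an unadjusted p under 0.05, and DESeq2 called 0). Without WT replicate 2, 4 of the higher genes rose at 24 h toward mesoderm and 7 toward endoderm, and without WT replicate 1, 19 of the lower genes fell at 48 h toward mesoderm. At 5 h the calls were few and ran in both directions. Toward mesoderm 0 of the higher genes rose (2.29%; DESeq2 called 0) and 2 fell, with 3 higher and 14 lower at an unadjusted p under 0.05 by edgeR and a median log2 fold change of -0.22. Toward endoderm 3 rose (0.976%) and 1 fell, with 11 higher and 9 lower at an unadjusted p under 0.05. Of the lower genes, 3 fell and 1 rose in each series (1.84% and 1.13% of all genes called lower), with 12 lower and 17 higher toward mesoderm and 11 lower and 15 higher toward endoderm at an unadjusted p under 0.05. Of these 5 h counts, that of the lower genes toward mesoderm was 1 without WT replicate 2, and that of the higher genes toward endoderm was 1 without WT replicate 1 and 0 without WT replicate 2.

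Formative and naive genes were counted in both series, and the difference between the series was not tested. By the paper's protocol, cells after 24 h received BMP4 toward mesoderm and Activin A toward endoderm, each with a further compound. The direction of differentiation and the added factors can therefore not be told apart. Of 25 formative genes, 16 rose and 2 fell at 48 h toward endoderm, where 5.16% of all genes rose and 3.00% fell. Toward mesoderm, 9 rose and 3 fell, where 5.57% of all genes rose and 3.08% fell. Dnmt3b rose toward endoderm (log2 fold change 2.64 ± 0.16 SE, edgeR adjusted p 1.2e-10) and had a difference short of the limit of size toward mesoderm (0.76 ± 0.11, edgeR adjusted p 2.2e-05). Pou3f1 rose toward endoderm (2.64 ± 0.19, edgeR adjusted p 1.2e-09) and did not pass the test toward mesoderm (0.20 ± 0.24, edgeR adjusted p 0.555). Lefty1 fell toward mesoderm (-9.98 ± 0.67, edgeR adjusted p 1.7e-09) and did not pass the test toward endoderm (0.21 ± 0.24, edgeR adjusted p 0.539). Of 18 naive genes, 15 fell toward endoderm (3.00% of all genes) and 5 toward mesoderm (3.08%). In either series 0 rose (by edgeR 0 were higher at an unadjusted p under 0.05).

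The genes that separate cluster 12 from clusters 5 and 17 were followed in undifferentiated bulk libraries, those labelled Jarid2 null against WT, over both directed series. The targeted gene was read first. Jarid2 had 346 to 472.7 CPM in the 4 WT libraries and 300 to 330.1 CPM in the 4 libraries labelled Jarid2 null, which did not overlap (log2 fold change -0.41 ± 0.10 SE, edgeR adjusted p 0.00733) and did not pass the call. Hprt was under 1 CPM in the WT libraries (0.185 to 0.522) and in the libraries labelled Jarid2 null (0.259 to 0.698), whereas the mostly Jarid2 null cells of clusters 5 and 17 had 597 and 585 UMI CPM. The labels of these libraries were kept, and a direction drawn from them rests on the label. Of the 50 genes highest in cluster 12 against these clusters, 1 was higher in the libraries labelled Jarid2 null (background 0.588% of 16655 genes) and 3 were lower (0.558%), whereas 17 were higher and 6 lower at an unadjusted p under 0.05 by edgeR, with a median log2 fold change of 0.13. Of the 50 lowest, 0 were called in either direction, with 3 higher and 20 lower at an unadjusted p under 0.05 by edgeR, and DESeq2 called 0 in either direction. Without replicate 1, 1 of the 50 lowest genes was called lower, and without either replicate the 1 higher call was lost. Meg3 (0.01 ± 0.18, edgeR adjusted p 0.976) and Rian (-0.15 ± 0.13, edgeR adjusted p 0.455), which were far higher in cluster 12 than in clusters 5 and 17, did not pass the test in these libraries.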

How the data were processed

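For the single cells, the authors prepared SORT-seq libraries, 1 plate each, mapped reads to GRCm38 with Bowtie 2, counted with HTSeq, removed cells with few genes, and clustered with Seurat v3. The deposited values are whole UMI counts without normalization, with the authors' cluster labels. UMIs were summed over the cells of a group and scaled to CPM, and a gene was counted at a ratio of at least 2 with at least 50 UMI CPM in the higher group. A gene under that limit in 1 group was compared only through the other group, and could be counted only as higher there. How many genes of each list this holds for was not counted. The members, the 25 gene lists, and the comparisons were chosen with earlier results of these data known. Named genes were members of these lists, the genes with the largest ratios in each comparison (15 higher against all other cells, 10 at each other end; without mitochondrial, spike-in, and ribosomal protein genes, and, against all other cells, only genes with the same direction within each WT library of at least 20 cluster 12 cells), and the 50 genes at each end followed in bulk. Annotation was GENCODE vM21. Values of some list genes are not reported here.

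For the bulk EBs, the deposited values are a signal, reads per gene that the authors divided by a size factor. Multiplied back, 100% were whole within 0.01 read. The 23 deposited columns of WT EBs were averaged into 12 samples of 5450149 to 15605645 reads, and log2(value + 1) was fitted with limma 3.58.1 (line as block, trend, values of at least 10 in 3 samples). A further 23 columns of samples were not used. The directed series were deposited as Salmon's estimated counts, which the authors did not normalize. These were rounded and fitted with edgeR 4.0.16 (TMM, quasi-likelihood F test, filterByExpr) over all 24 libraries of a series (9111880 to 16898264 counts). There, the standard error is the absolute fold change (log2) over the root of F. P-values are two-sided and Benjamini-Hochberg adjusted over all genes tested. R 4.3.3, DESeq2 1.42.0 (an alternative), and Python 3.11.15 with pandas 2.3.3 and SciPy 1.17.1 were used. Thinning used seed 7. The scripts were tested on simulated data.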

Additional observations from a re-analysis of the deposited data

How the results depend on the processing

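Single-cell counts depended on the depth of the cells and on the UMI CPM limit. With cells thinned to 2500 UMIs, the genes at least 2-fold higher and lower were 79 higher against all other cells, 150 lower against cluster 5, 330 higher and 285 lower against cluster 17, 719 higher within the WT day 4 library, 1197 higher within the WT day 10 library, 463 and 329 at day 7 against day 4, and 1078 and 572 at day 10 against day 4. At a limit of 20 UMI CPM they were 105 and 292 against all other cells, 516 and 212 against cluster 5, 755 and 270 against cluster 7, and 577 and 371 against cluster 17. With the other clusters weighing the same, 163 genes were lower than in all other cells. Without 1 WT library in turn, the counts ran from 48 to 79 higher against all other cells and from 159 to 237 lower against cluster 7. The direction reversed for Etv1 against cluster 7 without the WT day 4 library (log2 ratio from -0.39 to 1.64 without 1 WT library in turn), and, when thinned, at day 10 against day 4 for Bcl11a (0.44), Bloc1s4 (0.18), Etv1 (0.06), Jtb (0.96), Nr5a2 (-0.41), and Esrp1 (-0.14), where few UMIs remained. Of 1798 single-cell values under the alternatives, 1533 kept within the limits of the reported value, 258 moved, and 7 reversed, and none of the 1236 bulk fold changes reversed.

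In the WT EBs, without the line block, 0 of the 50 higher genes were called at day 2 and 12 at day 4, and 14 of the 50 lower genes at day 7, with 54, 538, and 1150 genes called in all at days 2, 4, and 7 (733, 1395, and 2210 with it). Leaving out 1 line in turn gave 0 to 3 higher genes and 0 to 402 genes in all at day 2, 1 to 23 higher, 1 to 29 lower, and 2 to 1540 in all at day 4, and 2 to 20 higher, 1 to 29 lower, and 10 to 2965 in all at day 7. The lowest values were those without JM8. The cause was not tested. edgeR on the recovered reads called 1387 genes at day 4.

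In the directed series, with no filter on low counts 1170 genes were called at 5 h toward mesoderm, 672 at 5 h toward endoderm, and 364 between undifferentiated Jarid2 null and WT libraries (759, 405, and 191 with it). Leaving out replicate 1 or 2 of every group leaves no residual degrees of freedom and was not run. Instead, chosen after seeing the data, 1 WT replicate was left out in turn. The lone library is then assumed to vary like the other groups. Toward mesoderm this gave 1 to 2 lower genes and 86 to 1093 genes in all at 5 h, 4 to 6 higher and 457 to 1225 in all at 24 h, and 19 to 27 lower and 685 to 1475 in all at 48 h. Toward endoderm it gave 0 to 1 higher and 75 to 491 in all at 5 h, 7 to 10 higher and 417 to 869 in all at 24 h, and 814 to 1266 in all at 48 h. For Jarid2 null against WT, leaving out a replicate of every group gave 0 to 0 higher among the 50 highest, 0 to 1 lower among the 50 lowest, and 89 to 139 in all.

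The deviations of same-numbered replicates had r from -0.166 to 0.0996 in WT mesoderm (median 0.0353) and -0.0250 to 0.0882 in WT endoderm (median -0.0140). Undifferentiated, r ran from -0.235 to 0.486 (median -0.0335). With 2 libraries per group, these values cannot show whether a number marks a shared batch. With a replicate block, 745, 1248, and 1551 genes were called at 5, 24, and 48 h toward mesoderm, 420, 1027, and 1577 toward endoderm, and 203 between Jarid2 null and WT. The same fit gave 8 higher and 10 lower list genes at 24 h and 19 and 29 at 48 h toward mesoderm, and 11, 13, 18, and 28 toward endoderm.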
